A study of Mus musculus with 8 samples.

Results

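The cytosolic ribosomal protein genes comprised 86 of the 32227 genes in the count tables of brain immune cells from mice given saline or endotoxin. They were chosen by name alone, as the symbols that begin with Rpl (52 genes, named for the large subunit) or Rps (34 genes, named for the small subunit). A symbol alone does not show that a protein is part of the ribosome, and this holds for *Rps23rg1* in particular. Of the names with these letters, 19 were left out, namely 8 pseudogenes, the names that begin with Rps6k (S6 kinases and relatives) and *Rps19bp1*, a binding protein of RPS19. The members took 13.9% of all UMIs (unique molecular identifiers, each a counted mRNA molecule) in 101195 cells that could be assigned to a cell type. At least 100 UMIs were counted for 85 members, and the remaining member, *Rpl10l*, had 30.

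The samples were 8 male C57Bl/6J mice of 5 to 6 months per the labels (the study's methods give a younger age range), with 1 library per mouse. Each received an intraperitoneal injection of lipopolysaccharide (LPS, endotoxin of *Escherichia coli*) at 15000000 EU/kg or of saline, and brains were taken after 24 hours without perfusion, so blood cells of the vessels were included. CD45+ cells were separated with magnetic beads from brains dissociated with enzymes, in the presence either of the inhibitors actinomycin D, triptolide and anisomycin, which block transcription and translation, or of DMSO as vehicle. The 4 groups of saline or LPS with DMSO or inhibitors had 2 mice each. Replicate 1 of each group was in a different batch from replicate 2, and the study mentions staggered capture days. The cells were counted by PIPseq, a droplet method for single cells.

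The ribosome translates mRNA into protein, and each of its subunits is built in the nucleolus from ribosomal RNA and many ribosomal proteins, most of which are present in every ribosome. In mammals the mRNAs of these proteins begin with a C followed by a run of pyrimidines, the 5′ terminal oligopyrimidine (TOP) sequence, through which mTOR and the RNA-binding protein LARP1 control their translation together. In microglia, the resident macrophages of the brain, LPS is known to cause a shift from the homeostatic to an inflammatory state.

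Start-site windows are shown for 8 members among those with small or large changes with LPS in microglia, so that the presence of a pyrimidine run can be seen beside the values. The RefSeq table of promoters (GRCm38.p6, while the counts were made on GRCm39) was used with a chromosome left out before counting. The part used held 66 of the 86 members by symbol, with 78 start sites. A member can therefore be missing here although the full table holds it. Each window runs from 10 bases before the annotated start to 20 bases from it, and capitals mark the pyrimidine run, defined as a C followed by at least 4 bases that are each C or T, on the strand of the gene, counted from the first such C within 5 bases of the annotated start, also inside a longer pyrimidine stretch.
*Rps27* (chr3:90213629-90213658, minus strand): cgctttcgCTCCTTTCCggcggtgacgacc
*Rps27rt* (chr9:114982720-114982749, minus strand): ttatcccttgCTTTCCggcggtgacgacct
*Rps27l* (chr9:66946076-66946105, plus strand): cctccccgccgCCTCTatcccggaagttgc
*Rpl14* (chr9:120571507-120571536, plus strand): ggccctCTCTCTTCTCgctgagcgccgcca
*Rps18* (chr17:33955646-33955675, minus strand): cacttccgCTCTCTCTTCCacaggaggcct
*Rpsa* (chr9:120127756-120127785, plus strand): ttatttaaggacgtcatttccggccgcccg
*Rplp0* (chr5:115559457-115559486, plus strand): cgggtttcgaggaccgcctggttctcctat
*Rpl7l1* (chr17:46782637-46782666, minus strand): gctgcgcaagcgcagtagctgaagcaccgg
In *Rpl14* further pyrimidines precede the capitals, so that the whole stretch begins more than 5 bases before the start. The last 3 have no run by this definition, and *Rps27l* has a further annotated start without a run. The starts are annotated and were not measured here, so a missing run does not show that the mRNA lacks a TOP sequence. Across the family 33 of 78 start sites (42.3%) had a run, against 18.3% of the 32851 start sites in the part of the table used. When only runs with no pyrimidine before their first C were counted, a definition added after the data had been seen, the numbers were 18 of 78 (23.1%) and 12.4%. With the C required at the annotated start itself, also inside a longer stretch, they were 14 of 78 (17.9%) and 2.51%. The median log2 fold change with LPS in microglia was 1.88 for the 31 members with a run and 1.84 for the 34 others tested among these 66.

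Library totals ranged from 90352359 to 141182123 UMIs, and 119053 cells were kept after filtering on depth, detected genes and mitochondrial UMIs. These cells carried 118918 distinct barcodes, of which 125 occurred in more than 1 library. Cells were assigned by at least 3 detected markers of a type, which succeeded for 89.3 to 94.1% of cells in saline libraries and for 77.0 to 80.5% in LPS libraries. The defining markers of microglia were themselves lower with LPS: the summed level of the 10 markers was 34468 to 36031 CPM (UMI counts of the type scaled to the same total in every library) in saline microglia and 6412 to 7700 in LPS microglia, and each marker was lower in all LPS libraries. Cells without a type had a member share of 15.7 to 20.8% in saline and 13.7 to 16.9% in LPS libraries. The median UMIs per cell also differed, at 2207 to 3161 in saline and 4149 to 4762.5 in LPS libraries, as did the median mitochondrial share per cell, at 1.36 to 1.60% and 2.24 to 2.66%. The part of these differences in the results below was not tested. In barcodes with few UMIs, which hold free RNA, the members took 8.14 to 8.60% of UMIs in saline and 13.8 to 14.9% in LPS libraries.

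Cell types differed widely in the share of their UMIs that came from ribosomal protein genes. In saline libraries the mean share was highest in T-cells, at 35.2% ± 2.87 (SD, n = 4 here and below), and B-cells, at 28.9% ± 2.34. NK cells followed at 23.1% ± 1.01 and monocytes at 15.4% ± 2.24. Macrophages (11.3% ± 0.946), pericytes and smooth muscle (10.2% ± 1.5), endothelial cells (9.77% ± 1.14) and microglia (8.04% ± 0.713) followed. Neutrophils had 6.08% ± 4.38, of which 1 library was at 12.6% and the other 3 at 3.55 to 4.39%, and choroid plexus cells 3.61% ± 0.344. The ranges over libraries overlapped between monocytes and macrophages, between macrophages, pericytes and endothelial cells, and between endothelial cells and microglia. Neutrophils, with that 1 library, overlapped with monocytes and every type below them, so the order among these neighbors was not clear beyond the spread. T-cells and B-cells did not overlap in saline libraries, with 31.8 to 38.5% and 25.9 to 31.6%. Within each of the 8 libraries the microglial share was below that of T-cells, B-cells and NK cells.

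**Figure D1:**
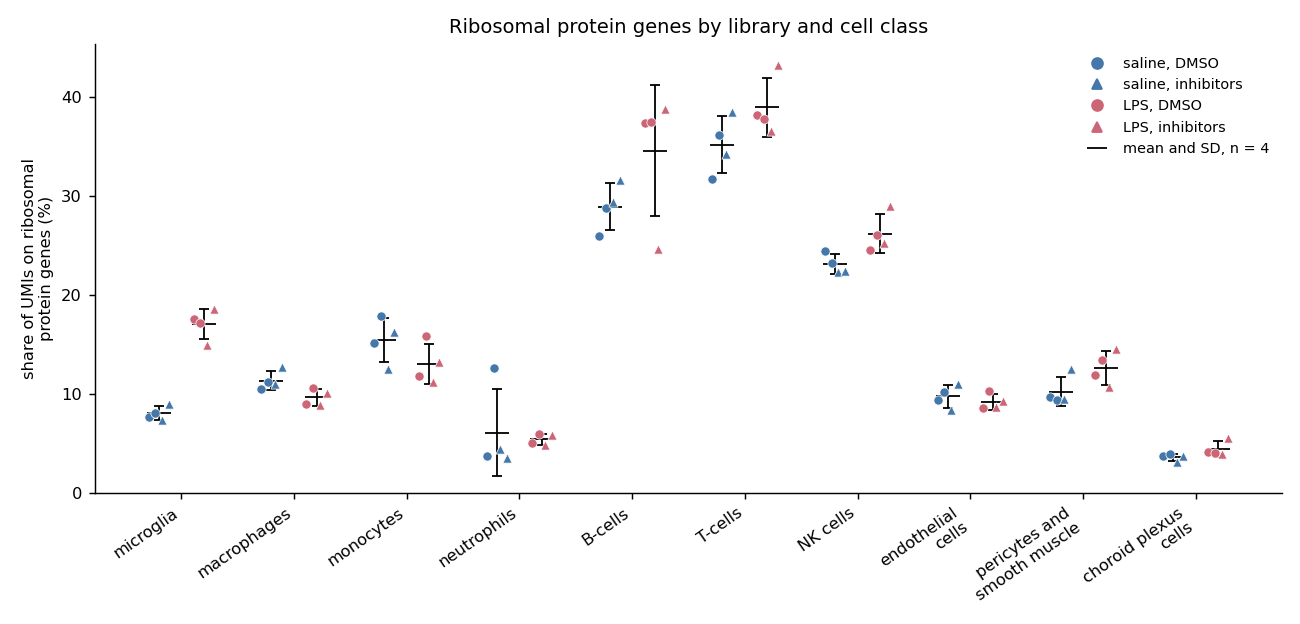
Share of UMIs on the 86 ribosomal protein genes (y axis, percent) for 10 cell types (x axis) in each of the 8 libraries, with saline in blue, LPS in red, circles for DMSO and triangles for inhibitors, and the mean and SD of 4 libraries in black. The LPS libraries of microglia lie at 14.9 to 18.6% and the saline libraries at 7.37 to 9.02%. In macrophages, monocytes, neutrophils and endothelial cells the LPS mean is below the saline mean, with overlap in each.

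The design asked first how LPS changed each cell type, and in microglia the ribosomal protein genes took a larger share of UMIs in every LPS library than in any saline library. The saline shares were 7.70 and 8.06% with DMSO and 7.37 and 9.02% with inhibitors. The LPS shares were 17.6 and 17.1% with DMSO and 14.9 and 18.6% with inhibitors. The means differed by 9.02 percentage points, or 2.12-fold, and the difference was 8.71 points in the first batch and 9.33 in the second. Per cell, the median number of member UMIs was 163 to 212 in saline and 709 to 1034 in LPS libraries, whereas the median of all other UMIs was 2038 to 2990 and 4099 to 4663. Among cells of 2000 to under 4000 UMIs, a window chosen after the depths had been seen, the shares were 6.87 to 8.68% and 13.5 to 16.9%. After subtraction of the expected free RNA they were 7.25 to 9.07% and 15.0 to 18.7%. The shift was seen across the cells: of the LPS microglia, 90.8 to 96.0% exceeded the 90th percentile of the saline library of the same batch and ex vivo treatment. Of the lists of markers of other cell types, those of monocytes, B-cells, erythrocytes and neutrophils overlapped in summed level between saline and LPS microglia and the other lists, that of microglia included, were lower in all LPS libraries.

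Gene by gene, 84 of the 85 members tested rose with LPS in microglia and none fell, by edgeR's quasi-likelihood test at a Benjamini-Hochberg adjusted p under 0.05 over 21085 genes, of which 29.2% rose and 33.6% fell. TMM, which scales libraries so that most genes do not differ, gave a median log2 fold change of 1.85 for the members (lower and upper quartile 1.55 and 2.16) and -0.20 for all genes. With scaling by total UMIs, an alternative chosen after the data had been seen, the medians were 1.10 and -0.96, so that 80 members rose and none fell, while 13.7% of all genes rose and 67.2% fell. Scaled by the genes other than the members, 82 rose and none fell, against 16.3% and 61.8% of all genes. Relative to all genes the median member was 2.05 higher under each of these scalings. A change of scaling moves all genes by nearly the same amount, so this difference is alike by construction. TMM factors were 1.19 to 1.41 in saline and 0.695 to 0.830 in LPS microglia. The 80 members were higher under all 4 scalings tried, and *Rpl3l*, *Rpl7l1*, *Rps23rg1*, *Rps27* and *Rps27rt* were not. Rpl and Rps members were alike in this. Of the Rpl members 51 of 51 rose, at a median of 1.82, and of the Rps members 33 of 34, all but *Rps23rg1*, at a median of 1.87. In CPM, 79 of 84 members with at least 100 UMIs were higher in all LPS than in all saline microglia libraries, and 1 was lower, against 13.8 and 59.4% of all genes.

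**Figure D2:**
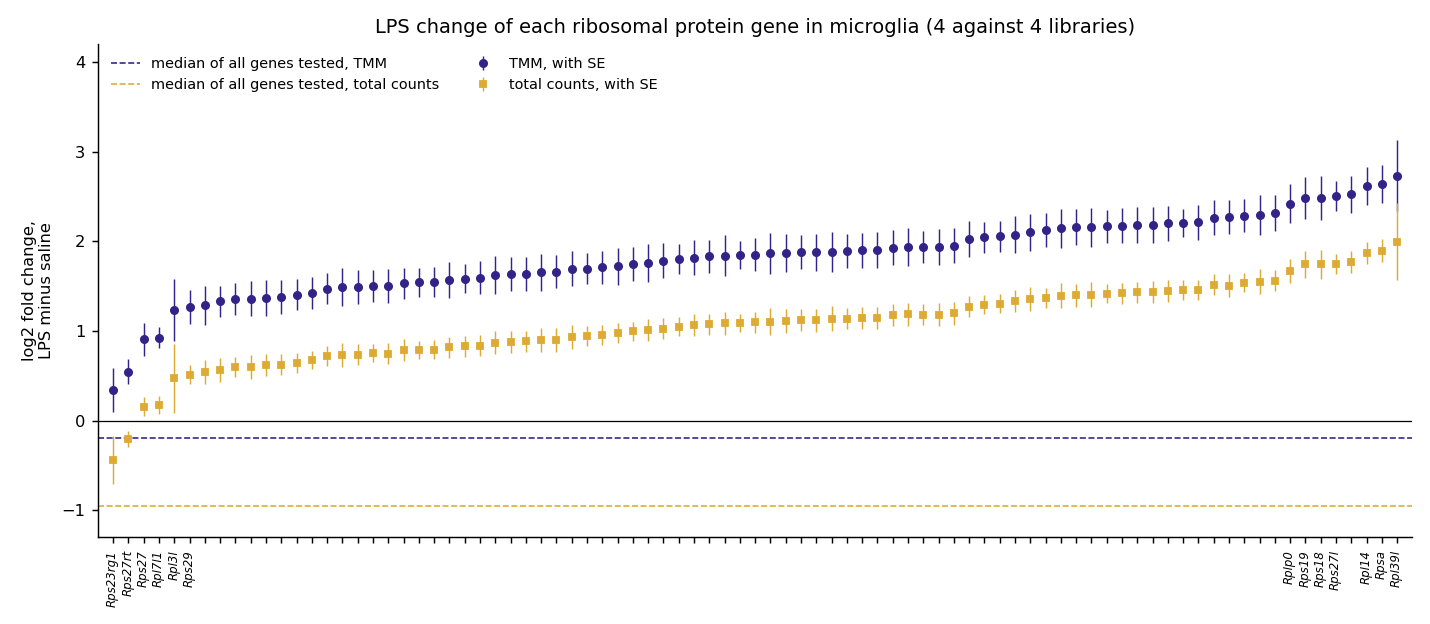
Log2 fold change, LPS minus saline (y axis), of each of the 85 tested members in microglia (x axis, ordered, with names at some of the members that the text describes), with standard errors, scaled by TMM (purple) and by total counts (yellow), with dashed lines at the median of all genes tested. Every point lies above the median of all genes of its scaling, and the values run from 0.34 to 2.73 with TMM.

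The members with the largest rises in microglia included components of both subunits. *Rpsa*, which encodes a small-subunit protein also known as the laminin receptor, was at 558, 661, 559 and 754 CPM in saline DMSO replicates 1 and 2 and saline inhibitor replicates 1 and 2. In the LPS libraries in the same order it was at 2448, 2273, 2137 and 2550, so every LPS library was higher than every saline library. Its log2 fold change was 2.64 ± 0.21 (SE) with TMM and 1.89 ± 0.13 with total counts (adjusted p = 2.62e-07 and 2.5e-08 by edgeR). *Rpl14*, of the large subunit, was at 751, 873, 765 and 998 CPM in saline and at 3168, 3339, 2719 and 3166 in LPS libraries, and its log2 fold change was 2.62 ± 0.21 with TMM.

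Further large rises were those of *Rps18*, with a log2 fold change of 2.48 ± 0.24 with TMM, and *Rps19*, which is mutated in Diamond-Blackfan anemia, with 2.48 ± 0.23. *Rps18* was at 604 to 964 CPM in saline and 2115 to 3088 in LPS libraries, and *Rps19* at 753 to 1113 and 2630 to 3638. *Rps27a* encodes a fusion of ubiquitin with a small-subunit protein. It was at 1342 to 1608 CPM in saline and 3846 to 4796 in LPS libraries, and its log2 fold change was 2.32 ± 0.20.

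Of the stalk proteins, which recruit translation factors to the large subunit, *Rplp0* rose by 2.42 ± 0.22 on the log2 scale with TMM and was at 731 to 962 CPM in saline and 2140 to 3067 in LPS libraries. Its partners *Rplp1* and *Rplp2* rose by 1.84 ± 0.23 and 2.14 ± 0.22. The proteins that form the 5S particle and bind Mdm2 when ribosome assembly is disturbed, encoded by *Rpl5* and *Rpl11*, rose by 1.55 ± 0.16 and 1.82 ± 0.20. *Rps6*, the substrate of the S6 kinases, rose by 2.05 ± 0.18. *Rpl5*, *Rpl11* and *Rps6* were named for these roles after their values had been seen.

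The smallest changes in microglia were those of *Rps23rg1*, *Rps27rt*, *Rps27* and *Rpl7l1*. *Rps27*, a zinc-finger protein of the small subunit, was at 1846, 1990, 1812 and 2128 CPM in saline and at 2267, 2294, 1903 and 2217 in LPS libraries, so the groups overlapped. Its log2 fold change was 0.91 ± 0.18 with TMM (adjusted p = 0.00089) and 0.16 ± 0.11 with total counts (adjusted p = 0.19), both by edgeR. *Rps27rt*, an intronless copy of *Rps27*, was at 670 to 725 CPM in saline and 585 to 642 in LPS libraries, below every saline library, and its log2 fold change turned from 0.55 ± 0.14 with TMM to -0.20 ± 0.09 with total counts. The transcripts of *Rps27rt* and *Rps27* share an identical stretch of 341 bases, so the split of their UMIs is uncertain. *Rps23rg1*, with 230 UMIs in all, gave 0.34 ± 0.25 with TMM (adjusted p = 0.24 by edgeR) and also turned sign with total counts. *Rps29*, a small zinc-finger protein, rose by 1.27 ± 0.19 with TMM and 0.51 ± 0.11 with total counts.

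Some ribosomal proteins have a paralog that can take their place in the ribosome, and the ratio of paralog to parent does not depend on the scaling. *Rps27l*, a paralog of *Rps27* known as a target of p53, stood at 7.83 ± 0.304 (SD, n = 4) UMIs per 100 UMIs of *Rps27* in saline microglia and at 23.7 ± 2.80 in LPS microglia. Values were 7.52 to 8.15 in saline and 21.2 to 27.0 in LPS libraries, so the groups lay far apart. In macrophages the ratio was 8.0 ± 0.293 and 23.0 ± 2.72, and in monocytes 14.4 ± 3.39 and 33.5 ± 3.97, also without overlap. In neutrophils, B-cells and T-cells the saline and LPS libraries overlapped. These ratios were formed after the values of the genes had been seen and were not tested. The longest stretch shared by *Rps27l* and *Rps27* was 11 bases.

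**Figure D3:**
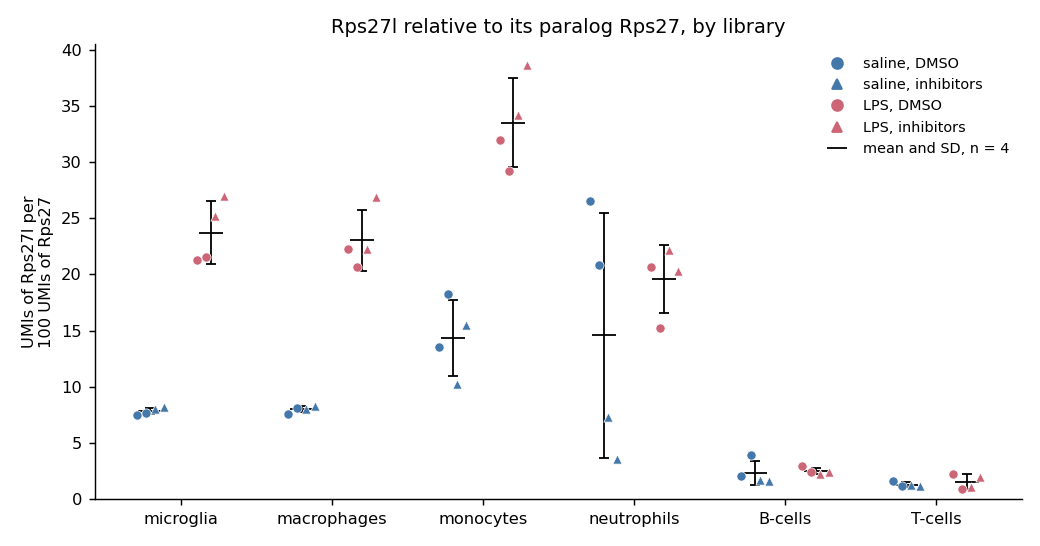
UMIs of *Rps27l* per 100 UMIs of *Rps27* (y axis) in 6 cell types (x axis) by library, with saline in blue, LPS in red, circles for DMSO, triangles for inhibitors and the mean and SD of 4 libraries in black. LPS libraries lie above saline libraries in microglia, macrophages and monocytes, and overlap with them in the other 3 types.

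*Rps27l* itself was at 139, 152, 145 and 173 CPM in saline and at 482, 495, 479 and 598 in LPS microglia. Its log2 fold change there was 2.50 ± 0.17 with TMM. *Rpl22l1*, the paralog of *Rpl22*, had overlapping ratios, with 22.7 ± 2.13 UMIs per 100 of *Rpl22* in saline and 21.7 ± 1.59 in LPS microglia, while *Rpl22* and *Rpl22l1* rose by 1.66 ± 0.18 and 1.58 ± 0.16 on the log2 scale with TMM. *Rpl36al* relative to *Rpl36a* was lower with LPS in microglia (68.9 ± 3.49 and 58.3 ± 2.58 UMIs per 100) and higher in macrophages (54.5 ± 1.68 and 65.6 ± 9.04), without overlap in either. It was also lower without overlap in B-cells, at 40.7 to 48.2 in saline and 24.5 to 39.3 in LPS libraries, and in T-cells, at 38.6 to 47.9 and 29.0 to 32.1. *Rpl7l1*, related to *Rpl7* and known from ribosome assembly, was also lower in microglia, at 16.0 ± 1.08 and 11.1 ± 2.02 per 100, and higher in macrophages, at 11.5 ± 1.81 and 19.0 ± 1.71, without overlap. It was higher in monocytes too, at 7.40 to 11.6 in saline and 14.9 to 35.6 in LPS libraries.

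*Rpl39l*, a paralog of *Rpl39* best known from testis, was sparse, with 1.78 to 5.29 CPM in saline and 3.42 to 18.6 in LPS microglia. It gave the largest fitted change, 2.73 ± 0.40 with TMM, although the groups overlapped because LPS inhibitors replicate 2 was at 3.42. *Rpl3l*, a muscle paralog of *Rpl3*, had 98 UMIs in all microglia. *Rps4x*, an X-linked protein of the small subunit, was at 1153 to 1341 CPM in saline and 2068 to 2656 in LPS microglia.

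Reads of some members could also be counted on processed pseudogenes, which were outside the rule. *Rpl10* was at 605 to 682 CPM in saline and 826 to 1078 in LPS microglia, and *Rpl10-ps3* was nearly as high, at 534 to 570 and 678 to 811. The sum of both was 1.49-fold higher with LPS, against 1.57-fold for *Rpl10* alone. For *Rps18* with *Rps18-ps5* the sum was 3.20-fold higher, against 3.35-fold for *Rps18* alone.

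In macrophages, the long-lived phagocytes of the meninges and vessels marked by *Mrc1* and *Pf4*, the members took a smaller share in each LPS library than in its saline counterpart. Saline shares were 10.5 to 12.7% and LPS shares 8.89 to 10.6%, with a mean difference of -1.69 points, and the ranges overlapped. With TMM 17 of 82 members rose and 4 fell, against 24.2% and 25.8% of 9963 genes, at a median log2 fold change of 0.12. With total counts 7 rose and 34 fell (14.9% and 41.1% of all genes), at a median of -0.23 (all genes -0.40), and the sign of 36 members turned between scalings. Relative to all genes the median was 0.17 higher, which is alike under both by construction. With the batch as a replicate block 27 of 83 rose and 10 fell with TMM, against 25.5% and 26.9% of all genes in that fit. The summed level of the 8 macrophage markers was 12241 to 13461 CPM in saline and 4234 to 4985 in LPS macrophages, and that of the 10 neutrophil markers 149 to 301 and 496 to 730. Of these 10 only *S100a8* and *Mmp8* were higher in all LPS libraries, and 1 was lower in all. The summed level of the 8 monocyte markers overlapped, at 108 to 180 CPM in saline and 79.3 to 268 in LPS macrophages. Among the monocyte markers *Ly6c2*, *Plac8* and *Vcan* were higher in all LPS libraries, and 1 was lower in all. Of the 19 lists of other types, 10 were lower in all LPS libraries, among them that of microglia, with each of its 10 markers lower and sums of 3160 to 3584 and 618 to 887, and that of dendritic cells, at 185 to 336 and 29.3 to 81.0. The part of these shifts in the result was not tested.

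*Rps27l*, *Rplp0*, *Rps2*, *Rpsa*, *Rplp2*, *Rpl24* and *Rpl8* were higher in macrophages with LPS under all 4 scalings. *Rps27l* was at 151 to 208 CPM in saline and 263 to 335 in LPS macrophages, and rose by 1.06 ± 0.17 on the log2 scale with TMM and 0.71 ± 0.14 with total counts. *Rplp0* was at 842 to 1007 and 1114 to 1508, and *Rpsa* at 1088 to 1268 and 1467 to 1650. *Rps29* and *Rps27rt* were lower under all 4 scalings. *Rps29* was at 6810, 6472, 6266 and 7118 CPM in saline and at 3121, 3134, 3074 and 3335 in LPS macrophages, and fell by 0.74 on the log2 scale with TMM (SE 0.15) and by 1.09 with total counts.

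In monocytes, which circulate in the blood, shares were 12.5 to 17.9% in saline and 11.2 to 15.9% in LPS libraries. The differences in the 4 pairs were -3.30 to -1.31 points. Whether these monocytes lay in the tissue or in the vessels was not measured. With TMM 1 of 83 members rose, *Rpl7l1*, against 14.8% of 10411 genes, and 3 fell, among them *Rps27* and *Rps27rt*, against 15.7%. *Rps27rt* was at 769 to 913 CPM in saline and 433 to 574 in LPS monocytes, with a log2 fold change of -0.64 ± 0.19. *Rpl7l1* was at 74.0 to 112 and 115 to 163, with 0.59 ± 0.19. With total counts none rose and 14 fell (11.7% and 18% of all genes), and with the batch as a replicate block 5 rose and 11 fell (16.6% and 16.9%). The counts rested on single libraries: without LPS inhibitors replicate 1 or without saline inhibitors replicate 2 no member passed in either direction, 3 rose and none fell without saline DMSO replicate 2, and without LPS DMSO replicate 2 none rose and 8 fell. Without saline inhibitors replicate 1 none fell, 2 rose and 1 fell without LPS DMSO replicate 1, none rose and 1 fell without LPS inhibitors replicate 2, and 2 rose without saline DMSO replicate 1. In these fits 12.1 to 15.6% of all genes rose and 10.7 to 15.3% fell. *Rps27rt* was lower under all 4 scalings. The summed level of the 8 monocyte markers was 6781 to 8340 CPM in saline and 4608 to 6243 in LPS monocytes. Of the 19 lists of other types, 10 were lower in all LPS libraries and none was higher, with the microglial list at 1340 to 2039 and 364 to 535, that of macrophages at 840 to 1167 and 320 to 423 and that of dendritic cells at 114 to 259 and 13.2 to 26.8. The part of these shifts in the result was not tested.

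In neutrophils, short-lived blood granulocytes with little RNA, shares were 3.75 and 12.6% with DMSO and 4.39 and 3.55% with inhibitors in saline, and 4.84 to 5.96% in LPS libraries. Saline DMSO replicate 2 stood apart at 12.6%, although the mean of its cells' shares was 4.46%. With TMM only *Rpl3l* of 83 members rose and none fell, against 8.13% and 7.93% of 4832 genes. It was at 0, 9.06, 31.0 and 26 CPM in saline and at 63.8, 58.2, 48.5 and 77.3 in LPS neutrophils, on 108 UMIs in all. Without saline DMSO replicate 2, 44 members rose and none fell, against 13.4% and 13.9% of all genes in that fit. When 2 markers sufficed for the gate, which was tried after the data had been seen and left 44 to 222 neutrophils per library in place of 61 to 279, 79 of 82 members rose, against 27.5% of all genes. The summed level of the 10 neutrophil markers overlapped between saline and LPS neutrophils, but 3 of them were lower in all LPS libraries. These were *Ltf* (6004 to 14117 CPM in saline and 429 to 897 in LPS libraries), *Camp* (4258 to 17620 and 2387 to 3163), both granule proteins, and *Ly6g* (453 to 1049 and 141 to 281). Of the 19 lists of other types 7 were lower in all LPS libraries, among them that of microglia, at 1545 to 3793 and 996 to 1295, and the part of these shifts was not tested.

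In B-cells the saline shares were 25.9 to 31.6%. The LPS shares were 37.4, 37.5 and 38.7% in 3 libraries and 24.7% in LPS inhibitors replicate 1, which had 17 B-cells. The other 3 LPS libraries had 38, 27 and 59 B-cells, and the saline libraries 109 to 393. No member passed with edgeR under TMM or with DESeq2, against 4.45% of 3596 genes that rose with edgeR. In edgeR with total counts 4 rose and 1 fell (3.17% and 4.51% of all genes), 2 rose when scaled by the other genes (4.62%) and 1 rose without the covariate (4.56%). At an unadjusted p under 0.05, 11 of 82 members passed with edgeR, all higher, against 21.2% of all genes in either direction. Without LPS inhibitors replicate 1, 49 members rose and none fell, against 4.68% of all genes that rose in that fit. Among cells of 2000 to under 4000 UMIs 69 rose, against 6.45%. The B-cell markers summed to 7220 to 8190 CPM in saline and 3336 to 4200 in LPS B-cells. Those of monocytes summed to 575 to 743 and 1300 to 2145, but of these 8 only *Plac8* was higher in all LPS libraries and 3 were lower in all. Of the 19 lists of other types 8 were lower in all LPS libraries, among them that of microglia, at 1197 to 1727 and 295 to 1144. Other features of the gated cells thus differed too, and their part in the result was not tested.

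In T-cells shares were 31.8 to 38.5% in saline and 36.6 to 43.3% in LPS libraries, higher with LPS in 4 of 4 pairs. With TMM 3 of 82 members rose, *Rpl24*, *Rps20* and *Rpl8*, and none fell, against 9.27% of 3529 genes that rose. *Rpl24*, of the large subunit, was at 2440 to 3000 CPM in saline and 3703 to 4214 in LPS T-cells, with a log2 fold change of 0.60 ± 0.16. *Rps20*, of the small subunit, was at 3613 to 3851 and 4435 to 6293, with 0.57 ± 0.17. With the batch as a replicate block 11 rose, against 9.78% of all genes. No member passed without LPS DMSO replicate 1, saline inhibitors replicate 1 or LPS inhibitors replicate 2, 1 passed without saline inhibitors replicate 2, and 8 passed without LPS inhibitors replicate 1, while 4.92 to 8.90% of all genes rose when 1 library was left out. The summed level of the 9 T-cell markers was 5036 to 7199 CPM in saline and 3065 to 4262 in LPS T-cells. The lists of monocytes, at 1009 to 1329 and 507 to 914, and of microglia, at 941 to 1680 and 463 to 599, were also lower in all LPS libraries. Of the monocyte markers *Plac8* went the other way and was higher in all of them. The part of these shifts in the result was not tested.

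Of the types described without a test, NK cells had shares of 22.3 to 24.5% in saline and 24.6 to 29.0% in LPS libraries, without overlap, and 24 of 82 members were higher and 6 lower in all LPS libraries in CPM, against 14.1% and 11.2% of all genes. The mean differences were -0.57 points in endothelial cells, 2.40 in pericytes and smooth muscle and 0.80 in choroid plexus cells, with overlap in each. In CPM, 12 of 82 members were higher and 13 lower in all LPS libraries in endothelial cells (15.4% and 26.2% of all genes), 11 of 81 higher and none lower in pericytes and smooth muscle (12% and 13.5%), and 18 of 81 higher and none lower in choroid plexus cells (17.3% and 5.25%).

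**Figure D4:**
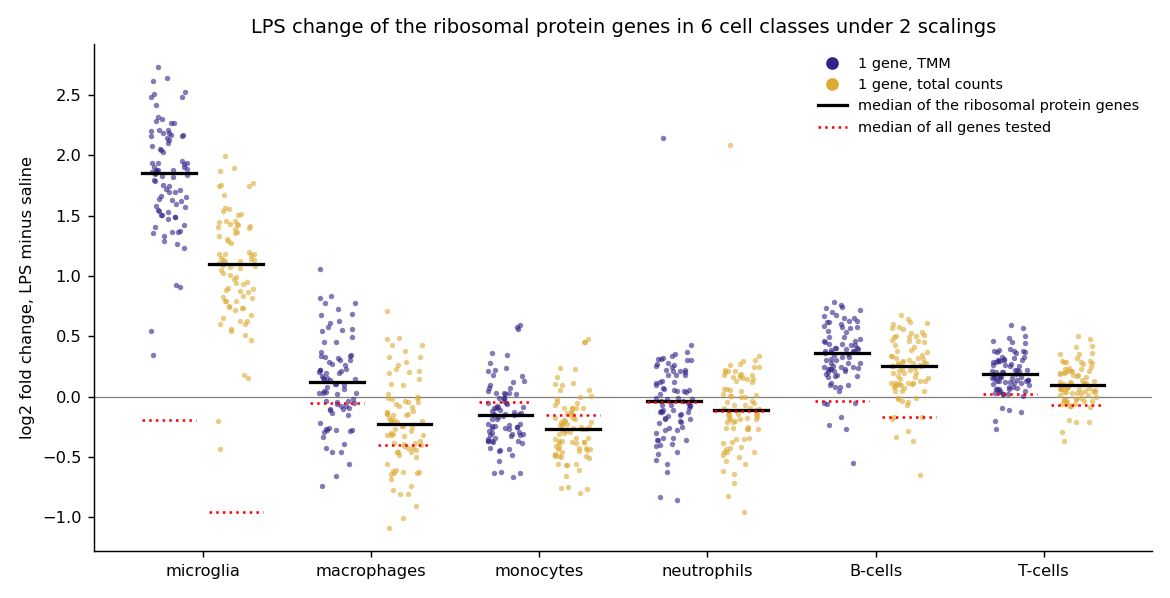
Log2 fold change, LPS minus saline (y axis), of each tested member in 6 cell types (x axis), 1 point per gene, scaled by TMM (purple) and by total counts (yellow), with the median of the members (black line) and of all genes tested (red dotted line). In microglia the members lie around 1.85 and 1.10, and in the other 5 types their medians lie between -0.27 and 0.36.

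The LPS change was compared directly between microglia and other types in a fit with the library as a block, which was added after the data had been seen. It was larger in microglia than in macrophages for 82 of 86 members with TMM, against 20.2% of 20242 genes, and for 81 with total counts (9.43%). Against monocytes it was larger for 81 of 85 members under both scalings (background 9.35% with TMM and 6.08% with total counts). Against B-cells it was larger for 81 of 86 with TMM (8.89%) and 69 with total counts (3.81%), and against T-cells for 81 of 85 (9.21%) and 79 (4.74%). Against neutrophils it was larger for 43 of 85 with TMM (5.44%) and 30 with total counts (3.94%). No member had a smaller change in microglia by this test. The median difference in log2 fold change was 1.75 against macrophages and 1.58 against monocytes with TMM.

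The study also asked whether inhibitors during dissociation altered expression, and with a filter on low counts the ribosomal protein genes gave no call in that comparison. Between DMSO and inhibitor libraries, no member passed in any of the 6 types by edgeR or DESeq2, and at an unadjusted p under 0.05 by edgeR 7 passed in monocytes (5.34% of all genes), 6 in neutrophils (4.72%) and none in the other 4. Without a filter on low counts edgeR called 5 members higher with DMSO in neutrophils, among them *Rps19*, and 1 lower in monocytes, *Rpl39l*, against 0.203% and 0.023% of all genes in that direction. The background was small too, with 0.375% of genes higher and 0% lower with DMSO in microglia, 0.522% and 0% in macrophages and 0.0576% and 0.00961% in monocytes. It was 0.111% and 0% in B-cells, 0.142% and 0% in T-cells and 0% both ways in neutrophils, where this fit called no gene. With total counts or scaling by the other genes no member passed either, against 0.379% of genes higher in microglia and 0.472% in macrophages. In monocytes the member share was higher with DMSO in 4 of 4 pairs, by 0.607 to 2.67 points. The LPS change in microglia was found within each treatment, with 83 members risen in DMSO libraries (background 22.3%) and 82 in inhibitor libraries (24.0%), at medians of 1.87 and 1.85. In macrophages 14 of 83 rose and 1 fell in DMSO libraries (16.4% and 15.6% of all genes), and 4 rose and 4 fell in inhibitor libraries (16.6% and 16.3%). The difference between these changes passed for no member in any of the 6 types by edgeR. The background was 0.0181% of genes higher and 0.00453% lower in microglia, 0.00904% higher in monocytes and 0.0232% lower in B-cells. At an unadjusted p under 0.05 it passed for 1 member in monocytes (5.57% of all genes in either direction) and 16 in neutrophils (5.20%). All 16 had a lower LPS change in DMSO libraries, and the median log2 fold change of the members in neutrophils was -0.67 in DMSO libraries, which include the saline library at 12.6%, and 0.83 in inhibitor libraries.

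The make-up of the family, meaning each member's share of all member UMIs, also differed between types and with LPS, and it does not depend on the scaling. In microglia 69 of 84 members had shares within 0.5 log2 units between saline and LPS means. Of the 84, the share of 27 was higher and that of 27 lower in all LPS than in all saline libraries. *Rps27* took 2.42% of member UMIs in saline and 1.27% in LPS microglia, with all LPS libraries lower, and the same held in macrophages, monocytes, B-cells, NK cells and endothelial cells. *Rps29* took 4.59 and 3.08% in microglia and 5.89 and 3.29% in macrophages. *Rpsa* went the other way, from 0.785 to 1.38% in microglia, 1.03 to 1.65% in macrophages and 0.737 to 1.59% in endothelial cells. *Rplp0* had a larger share with LPS in microglia (1.02 and 1.54%), macrophages (0.816 and 1.35%) and endothelial cells (0.701 and 1.4%). It was also larger in B-cells (1.02 and 1.28%), NK cells (1.03 and 1.48%) and pericytes and smooth muscle (0.991 and 1.59%). Monocytes (1.54 and 1.32%) and neutrophils (1.53 and 1.20%) had a smaller share, and the groups did not overlap in any of these types. *Rps2*, of the small subunit, took 0.318 and 0.90% in endothelial cells, 0.644 and 1.09% in monocytes and 0.313 and 0.405% in microglia.

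Members also differed in share between types. *Rps9*, a small-subunit protein, took 6.19% ± 1.63 (SD over 8 libraries) of member UMIs in neutrophils, 2.83 times its mean over the 10 types, and was highest there in 8 of 8 libraries, as was *Rps27a* at 4.41% ± 1.10. In choroid plexus cells *Rps27l* took 0.675% ± 0.157, which was 2.60 times its mean over types, and *Rpl41*, which encodes a very short basic protein, took 4.79% ± 0.417, both highest in 8 of 8 libraries. *Rplp1* was highest in macrophages in 8 of 8 libraries, at 3.88% ± 0.182, and *Rpl21*, of the large subunit, in pericytes and smooth muscle at 1.36% ± 0.188. *Rps27* led in T-cells, at 3.78% ± 0.239, and was highest there in 6 of 8 libraries. Monocytes had the highest share of *Rps2* and *Rpsa* in 6 of 8 libraries each, at 0.864% ± 0.301 and 2.28% ± 0.404.

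Other genes of the translation pathway were described from lists by role. *Fau*, which encodes a further protein of the small subunit, and *Rack1*, a scaffold on the ribosome, rose in microglia under all 4 scalings. *Rack1* was at 667 to 705 CPM in saline and 1115 to 1240 in LPS microglia. All 5 elongation factors rose with TMM, of which *Eef1g*, a subunit of the factor that recharges eEF1A, rose by 2.82 and *Eef2*, the translocase, by 0.84, and the latter did not pass with total counts. Of 30 initiation factors and related proteins 29 rose with TMM, and 21 rose and 2 fell with total counts. *Eif5a*, the hypusine-bearing factor, was at 175 to 244 and 973 to 1338 CPM, and *Eif4a1*, the cap-complex helicase, at 322 to 380 and 992 to 1230. These counts stand against 29.2% of all genes with TMM and 13.7% with total counts.

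All 30 ribosome biogenesis factors rose in microglia with TMM and 29 with total counts, at medians of 2.11 and 1.36. *Ncl*, the nucleolar protein nucleolin, was at 148 to 183 CPM in saline and 656 to 971 in LPS microglia, and *Nhp2*, of the H/ACA particles that modify ribosomal RNA, at 38.5 to 57.9 and 254 to 341. Of 11 genes of RNA polymerase I and its factors, 11 rose with TMM, whereas 5 rose and 1 fell with total counts. Of 12 regulators of TOP mRNA translation 8 rose and 2 fell with TMM and 2 rose and 6 fell with total counts. The shares of all genes were 29.2% higher and 33.6% lower with TMM and 13.7% and 67.2% with total counts. *Myc*, a transcription factor that drives ribosome synthesis, and *Eif4ebp1*, which represses cap-dependent initiation, rose under all 4 scalings. *Tsc1*, an inhibitor of mTOR complex 1, and *Rptor*, its scaffold, fell under all 4. *Rptor* was at 116 to 128 and 42.6 to 62.5 CPM.

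In macrophages and monocytes, where the members had small medians, 27 and 25 of 30 biogenesis factors rose with TMM, at medians of 1.23 and 0.94, against 24.2% and 14.8% of all genes. With total counts 23 and 21 rose, against 14.9% and 11.7%. *Rrp12*, which acts in the export of subunits, was at 1.62 to 6.11 CPM in saline and 18.0 to 19.1 in LPS macrophages, and at 4.31 to 7.48 and 29.8 to 52.1 in monocytes. *Nop10*, also of the H/ACA particles, fell in monocytes, at 161 to 332 CPM in saline and 99.6 to 158 in LPS libraries. *Fau* and *Rack1* gave no call in either type with TMM, and both fell in macrophages with total counts. In T-cells 3 of 20 tested biogenesis factors rose, among them *Ncl*, against 9.27% of all genes, and in B-cells 1 of 19, against 4.45%.

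**Figure D5:**
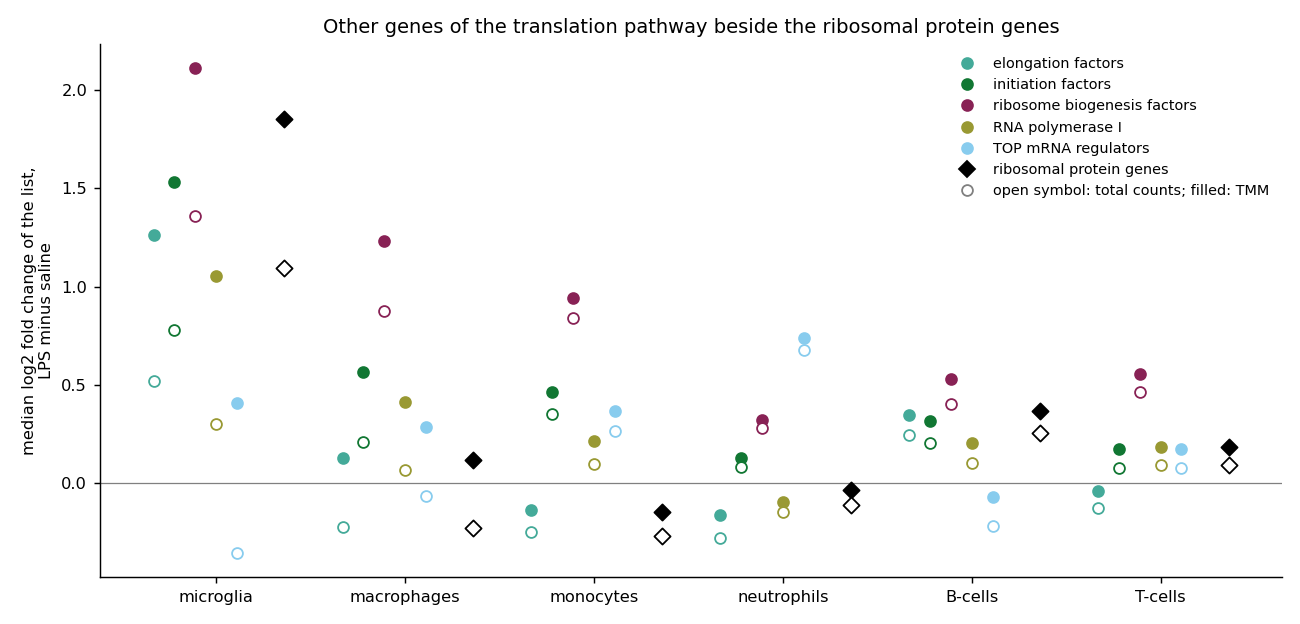
Median log2 fold change, LPS minus saline (y axis), of 5 lists of translation genes (circles) and of the ribosomal protein genes (diamonds) in 6 cell types (x axis), with filled symbols for TMM and open symbols for total counts. The biogenesis factors have the highest median of the lists in microglia, macrophages and monocytes, while the ribosomal protein genes are near 0.12 and -0.15 in macrophages and monocytes with TMM.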

How the data were processed

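Single cells were counted by PIPseq in 8 libraries. The deposited values are raw UMI counts per gene and barcode, which the authors made with PIPseeker (STAR alignment, GENCODE mouse reference) without normalization, and the labels name Seurat 4 among the submitters' tools. Cells with 800 to under 45000 UMIs, 250 to under 6500 genes and under 5% mitochondrial UMIs were kept. A cell was assigned to a type when at least 3 markers of that type were detected and their summed UMIs exceeded those expected from 20% free RNA (Poisson p under 0.001); cells that fitted more than 1 type were left out in place of a doublet caller. The gate settings, the members and the gene lists were chosen with earlier results of these data known.

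UMIs were summed per library and type (at least 10 cells) and tested in edgeR 4.0.16 (R 4.3.3; filterByExpr, TMM, quasi-likelihood) with the other treatment as a covariate and Benjamini-Hochberg adjustment over all genes of the type. DESeq2 1.42.0 was an alternative. The fits were run on simulated counts of microglia and T-cells in which as many genes rose as fell. Such counts do not bear on the choice of scaling. Values per library are CPM, the summed UMI counts scaled to the same total. Member shares, makeup and paralog ratios carry no p-value, because the members were chosen as a set; planned permutation tests of shares are therefore not reported. Named genes were the 10 (microglia) or 5 (other types) members with the largest change each way, paralogs, the 10 with most UMIs and the 5 leading members of each type, and called genes of the pathway lists. Some genes within this rule are not reported here. Replicate numbers equal the batch and so pair the libraries. Within-group deviations of replicate 1 libraries in microglia correlated at 0.0908 to 0.540 over 6 pairs. Whether mice of a group shared a litter is not given, so p-values measure the spread between these 8 mice. Depth limited the genes tested, from 21085 in microglia to 3529 in T-cells. The assigned cells numbered 86729 microglia, 4250 macrophages, 3021 monocytes, 1335 neutrophils, 1148 B-cells and 759 T-cells. Counts of calls in different types thus rest on unlike numbers of cells. Alternatives changed the scaling, filter, covariate, cells, gate and libraries.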

Additional observations from a re-analysis of the deposited data

Results flagged for a closer look

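In 4 of 20 groups of 4 libraries, where chance gives about 1 in 20, a single library lay far from the other 3 in the share of UMIs on ribosomal protein genes. In saline neutrophils it was DMSO replicate 2, at 12.6% against 3.55 to 4.39%; the mean over its 159 cells was 4.46%, and 3.36% among cells of 2000 to under 4000 UMIs. In LPS B-cells it was inhibitors replicate 1, at 24.7% of the UMIs of 17 cells, against 37.4 to 38.7%. In saline pericytes and smooth muscle it was inhibitors replicate 2, at 12.5%, and in LPS choroid plexus cells inhibitors replicate 2, at 5.58%.

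The LPS change differed between microglia and other types, as tested by the interaction of type and treatment with the library as a block. It was larger in microglia for 82 of 86 members against macrophages (20.2% of all genes), 81 of 85 against monocytes (9.35%), 43 of 85 against neutrophils (5.44%), 81 of 86 against B-cells (8.89%) and 81 of 85 against T-cells (9.21%). Among members with at least 100 UMIs in microglia and a UMI in every library of both types, the change in CPM was larger in microglia in all 4 pairs of libraries for 81 of 82 against macrophages (20.3% of all such genes), 81 of 82 against monocytes (13.2%), 40 of 80 against neutrophils (12.8%), 81 of 82 against B-cells (21.2%) and 79 of 82 against T-cells (17.8%). It was smaller in all 4 pairs for *Rpl7l1* alone, against monocytes (37.7% of all such genes).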

How the results depend on the processing

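In microglia each alternative left 80 to 84 members higher with LPS and none lower (13.7 to 31.4% of all genes higher), and none of the 10 members with the largest rise there lost its call. Elsewhere counts moved by over 1.5 times, and the cause was not tested; percents in parentheses are shares of all genes called in the same fit and direction. Macrophages had 7 higher and 36 lower when scaled by the other genes (14.3 and 43.1%), 7 and 34 with total counts (14.9 and 41.1%) and 27 and 10 with a replicate block (25.5 and 26.9%), and 9 lower with free RNA subtracted (24.2%) and 7 lower at a gate of 2 markers (25.6%). Monocytes had 2 higher with DESeq2 size factors (15.4%) or DESeq2 (11.7%), 6 higher and 0 lower without a filter (9.06 and 4.61%), 0 and 15 scaled by the other genes (11 and 20.2%), 0 and 14 with total counts (11.7 and 18%), 5 and 11 with a replicate block (16.6 and 16.9%), and 2 and 5 at 2000 to under 4000 UMIs (14.7 and 14.3%). Neutrophils had 0 higher at 1500 or more UMIs (5.58%), 79 at 2 markers (27.5%) and 19 at 2000 to under 4000 UMIs (12.6%), and 1 lower when scaled by the other genes (9.04%) or total counts (8.17%), without the covariate (10.3%) or with free RNA subtracted (6.21%). B-cells had 2 higher scaled by the other genes (4.62%) or at 2 markers (6.08%), 4 higher and 1 lower with total counts (3.17 and 4.51%), 1 higher without the covariate (4.56%) and 69 higher at 2000 to under 4000 UMIs (6.45%). T-cells had 5 higher with DESeq2 (4.53%), 0 without a filter (1.61%), 6 scaled by the other genes (9.24%) or total counts (7.17%), 11 with a replicate block (9.78%) and 12 at 2000 to under 4000 UMIs (7.94%). Leaving out 1 library gave 0 to 49 higher in B-cells (1.95 to 6.44%), 0 to 8 in T-cells (4.92 to 8.90%), 0 to 3 higher and 0 to 8 lower in monocytes (12.1 to 15.6% and 10.7 to 15.3%), 1 to 44 higher in neutrophils (4.95 to 13.4%) and 3 to 9 lower in macrophages (21.1 to 23.3%), of which 9 was without LPS DMSO replicate 2 and 7 without saline DMSO replicate 1. Without a filter, DMSO against inhibitors gave 1 lower in monocytes (0.023%) and 5 higher in neutrophils (0.203%). The LPS difference in share was -0.66 points in neutrophils but 7.62 at 2 markers, 1.52 at 2000 to under 4000 UMIs, 0.50 as a mean over cells and -1.50 to 1.52 when 1 library was left out, positive only without saline DMSO replicate 2. At 2000 to under 4000 UMIs it was 10.6 in place of 5.63 in B-cells and 7.02 in place of 3.77 in T-cells. It was 8.93 in B-cells without LPS inhibitors replicate 1, 2.33 in T-cells without LPS inhibitors replicate 2, and in monocytes -1.55 as a mean over cells and -1.61 without saline DMSO replicate 2 in place of -2.42. The replicate block changed no other count by over 1.5 times. Alternatives on total counts, 2 markers and the UMI window were chosen after seeing the data. Over 27 calls of the most changed members, 454 alternatives kept the call and 56 lost it. *Rpl3l*, the 1 call in neutrophils, was not tested at 1500 or more UMIs.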
